A study of Mus musculus with 2 samples.

Results

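The genes that hold and release the sterol-regulated transcription factors of the SREBP family were followed in mouse adrenal gland. The 5 genes, taken by their names in the read tables, were Srebf1 and Srebf2, which encode the transcription factors, Scap, which encodes their escort protein, and Insig1 and Insig2, which encode the proteins that anchor the escort. They are 5 of the 16945 annotated genes with a read in either library. Long-read RNA sequencing, in which 1 read can span a whole transcript, was carried out on total RNA of the whole gland from female B6CASTF1/J mice, first-generation hybrids of the C57BL/6J and CAST/EiJ strains, aged 36 days. There was 1 group with 2 libraries, replicate 1 and replicate 2, and no treated or mutant group, so that no condition can be compared. The labels give the libraries different animal numbers in 1 field and the same number in another, so the p-values below compare these 2 libraries and measure counting error, not the spread between animals.

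SREBP precursors are membrane proteins of the endoplasmic reticulum, where they are bound by SCAP. When sterols are plentiful, INSIG proteins keep the SCAP and SREBP pair in place, and when sterols fall the pair moves in COPII vesicles to the Golgi, where the site-1 and site-2 proteases Mbtps1 and Mbtps2 free the part that enters the nucleus. SREBP-2, the product of Srebf2, is known mainly for genes of cholesterol synthesis and uptake, and SREBP-1c for genes of fatty acid synthesis, while SREBP-1a acts on both. In the adrenal cortex cholesterol is the starting material of every steroid hormone.

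Srebf1 lies on the minus strand of chromosome 11 (mm10, chr11:60199089-60222581), and its alternative first exons 1a and 1c give proteins that differ at their amino terminus. The 1a exon (chr11:60220453-60220604) starts 10139 bp upstream of the 1c exon (chr11:60210336-60210465), and both are joined to the same second exon. The coding parts of both first exons are shown because the reads below are divided by them. Capitals mark the start codon.
Srebf1 exon 1a, coding part: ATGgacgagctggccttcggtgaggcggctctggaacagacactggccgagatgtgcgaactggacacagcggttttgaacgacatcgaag
Srebf1 exon 1c, coding part: ATGgattgcacatttgaag
The 1a exon carried 91 coding bases (chr11:60220453-60220543) and the 1c exon 19 coding bases (chr11:60210336-60210354), both from the GENCODE M21 transcripts.

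The DNA upstream of the start sites is shown because each first exon has a promoter of its own. The stretches come from RefSeq on GRCm38.p6, and each ends before the first base of its own first exon. Both Srebf1 stretches lie within the annotated span of the gene given above. The motifs searched on both strands were the sterol element core TCACNCCA, the E-box CACGTG, the CCAAT box CCAAT, the GC box GGGCGG and the LXR element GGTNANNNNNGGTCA. Capitals mark matches to the sterol element core, the E-box or the LXR element.
Srebf1 1a promoter, chr11:60220628-60220877, minus strand: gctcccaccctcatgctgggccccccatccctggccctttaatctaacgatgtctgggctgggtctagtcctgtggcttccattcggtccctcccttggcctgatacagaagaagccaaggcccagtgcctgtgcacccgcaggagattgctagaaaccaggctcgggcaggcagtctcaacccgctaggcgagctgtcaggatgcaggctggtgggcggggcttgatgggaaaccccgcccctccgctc
Srebf1 1c promoter, chr11:60210472-60210721, minus strand: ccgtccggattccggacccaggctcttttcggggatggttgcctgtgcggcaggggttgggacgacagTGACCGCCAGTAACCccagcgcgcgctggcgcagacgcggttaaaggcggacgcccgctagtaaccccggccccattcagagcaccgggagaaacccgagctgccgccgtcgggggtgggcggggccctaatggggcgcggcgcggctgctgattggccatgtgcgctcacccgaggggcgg
Srebf2 promoter, chr15:82147019-82147180, plus strand: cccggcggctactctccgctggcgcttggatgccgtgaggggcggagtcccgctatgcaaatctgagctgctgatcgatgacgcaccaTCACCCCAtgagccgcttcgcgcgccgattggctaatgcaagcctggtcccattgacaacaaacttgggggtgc
A match to the LXR element letters began 182 bases before the RefSeq start of 1c, on the opposite strand, and such a match was present in 0.207% of 32851 promoter windows of 300 bases. A match to the sterol element core began 162 bases before the RefSeq start of Srebf2, and 4.36% of all windows held one. The E-box letters, present in 7.15% of all windows, occurred in the windows of Insig1 and Scap. The CCAAT box occurred in 37.4% and the GC box in 35.7% of all windows. In the 1a window, of these 5 motifs only the GC box was matched, 3 times. Neither match in capitals overlapped another motif searched. All 5 genes had a window in the RefSeq table, and a match describes letters only.

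Insig1 was the most abundant of the 5 genes and Srebf2 the least abundant. Levels are given as CPM, the reads of a gene per 1000000 reads of annotated genes in the library. Insig1 had 469 reads in replicate 1 and 82 in replicate 2, or 410 and 198 CPM, with a mean of 304 ± 150 CPM (SD, n = 2). Srebf1 had 149 and 52 reads, or 130 and 125 CPM, with a mean of 128 ± 3.36 CPM (SD, n = 2). Scap had 97 and 37 reads, or 84.7 and 89.2 CPM, with a mean of 87.0 ± 3.18 CPM (SD, n = 2). The values of Srebf1 and Scap were close in both libraries, while those of Insig1 were far apart. Insig2 had 113 and 22 reads, or 98.7 and 53.1 CPM, with a mean of 75.9 ± 32.3 CPM (SD, n = 2). Srebf2 had 38 and 18 reads, or 33.2 and 43.4 CPM, with a mean of 38.3 ± 7.22 CPM (SD, n = 2). Insig2, like Insig1, was higher in replicate 1, and Srebf2 was the lowest of the 5 genes in each library. In whole tissue, fewer cells of 1 type and less RNA per cell cannot be told apart. Models are classed as Known where they match an annotated transcript, NIC where they join annotated splice sites in a new combination, NNC where they hold a new splice site, ISM where they are part of an annotated chain, and Genomic where they overlap the gene outside its splice chains. Known, NIC and NNC models count as full-length. The mean of Srebf2 was 23.9 CPM without Genomic models and 15.9 CPM in full-length reads, and that of Scap was 51.1 CPM in full-length reads.

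**Figure D1:**
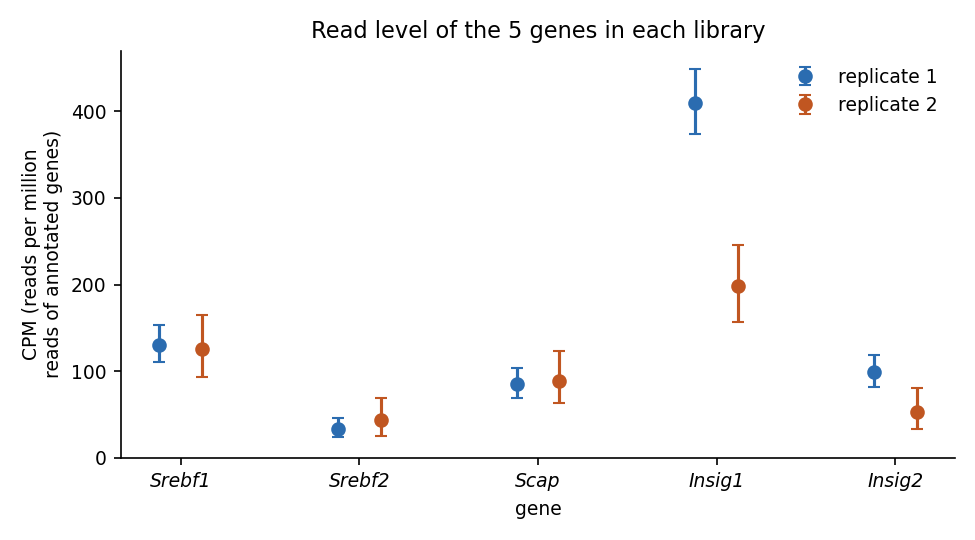
Level of each gene in CPM (y axis, linear) for the 5 genes (x axis), with 1 point per library and bars for the exact Poisson 95% interval of the reads, which covers counting error only. The intervals of the libraries overlap for Srebf1, Srebf2 and Scap, and do not overlap for Insig1 and Insig2. For Insig1 replicate 1 lies at 374 to 449 CPM against 157 to 246 CPM in replicate 2. For Insig2 these are 81.4 to 119 CPM and 33.3 to 80.3 CPM.

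Per kilobase of the reference transcript (Srebf1-201 and its counterparts), the levels were 113 CPM for Insig1, 29.7 for Srebf1, 28.1 for Insig2, 20.6 for Scap and 7.55 for Srebf2, as means of the libraries. The range of Insig2, from 19.7 to 36.6 CPM per kilobase, took in both values of Srebf1 (29.2 and 30.3) and of Scap (20.0 and 21.1). On this scale Insig2 therefore did not differ from either beyond its spread. Because 1 read can span a whole transcript, division by length can favour the shorter transcripts. In CPM not divided by length, Srebf1 (130 and 125) lay above Insig2 (98.7 and 53.1) in both libraries. The values of Srebf1 and Scap did not overlap, with Srebf1 above Scap in both libraries. Insig1, from 73.3 to 152 CPM per kilobase, lay above all of them, and Srebf2, from 6.54 to 8.55, below all of them. Among the 12760 genes read in both libraries, the mean CPM of Insig1 lay above that of 95.5%, Srebf1 above 87.4%, Scap above 81.6%, Insig2 above 79.2% and Srebf2 above 65.5%.

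Reads of Srebf1, the gene of SREBP-1a and SREBP-1c, outnumbered those of Srebf2 in both libraries. The ratio of Srebf1 to Srebf2 reads was 3.92 in replicate 1 (exact 95% interval 2.73 to 5.76) and 2.89 in replicate 2 (1.66 to 5.25), with a mean of 3.40 ± 0.73 (SD, n = 2). When only reads of full-length models were counted, the ratio was 17.3 in replicate 1, where Srebf2 had 6 such reads, and 4.00 in replicate 2, where it had 8. In each library 5 of these Srebf2 reads were of Srebf2-205, an annotated retained-intron transcript that ends inside intron 4. This ratio therefore does not compare complete coding transcripts. The ratio of Insig1 to Insig2 reads was 4.15 in replicate 1 (3.37 to 5.14) and 3.73 in replicate 2 (2.31 to 6.27), with a mean of 3.94 ± 0.30 (SD, n = 2), so Insig1 was ahead of its paralog in both libraries.

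Both alternative first exons of Srebf1 were read, with 1a ahead of 1c in each library. Assigned by the first splice donor, 67 reads of replicate 1 began with exon 1a, 31 with exon 1c and 1 with an exon 1977 bp upstream of 1a (chr11:60222523-60222581), and 50 had none of these, of which 38 lacked the 5′ part of an annotated chain and 7 were Genomic. In replicate 2 the reads were 18 for 1a, 13 for 1c, 0 for the upstream exon and 21 for none, of which 15 lacked the 5′ part and 5 were Genomic. Among reads with a 1a or 1c exon, the 1c share was 31.6% (23.3% to 41.4%, 95% Wilson interval) in replicate 1 and 41.9% (26.4% to 59.2%) in replicate 2, with a mean of 36.8% ± 7.29 (SD, n = 2). The intervals overlap between the libraries, and that of replicate 2 takes in equal shares of 1a and 1c.

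None of the 1c reads matched an annotated transcript in full, because the annotated transcript that holds exon 1c, Srebf1-207, stops before the last exon of the gene. All 31 and 13 of them were in NIC or NNC models. The leading 1c model had 19 exons and a length of 4204 bp, ran from chr11:60199089 to chr11:60210392, and had 20 reads in replicate 1 and 9 in replicate 2. It is the 1c counterpart of Srebf1-201, the 1a transcript of 19 exons and 4299 bp, which had 49 and 16 reads. Srebf1-201 thus held 47.1% (37.8% to 56.6%) and 50% (33.6% to 66.4%) of the full-length Srebf1 reads, and the leading 1c model 19.2% and 28.1%. Together they were the most frequent chains of each kind in both libraries.

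A shorter form of exon 4 (chr11:60206173-60206310 in its long form) was read after either first exon. Its splice donor lies 15 bp inside the exon, which removes the bases in capitals and keeps the reading frame.
Srebf1 exon 4, last 45 bases, chr11:60206173-60206217, minus strand: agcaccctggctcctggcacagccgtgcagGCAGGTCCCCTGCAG
The inner donor was used in 17 of 115 reads that cross the junction in replicate 1 (14.8%, 9.44% to 22.4%) and in 4 of 33 in replicate 2 (12.1%, 4.82% to 27.3%). Among 1a reads it was used in 10 of 67 and 1 of 18, and among 1c reads in 6 of 31 and 3 of 13. The intervals for 1a and 1c overlap in each library, and the association with the first exon was not tested. The short form gave the unannotated full-length chains of 4284 bp with exon 1a (10 and 1 reads) and of 4189 bp with exon 1c (6 and 3 reads).

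**Figure D2:**
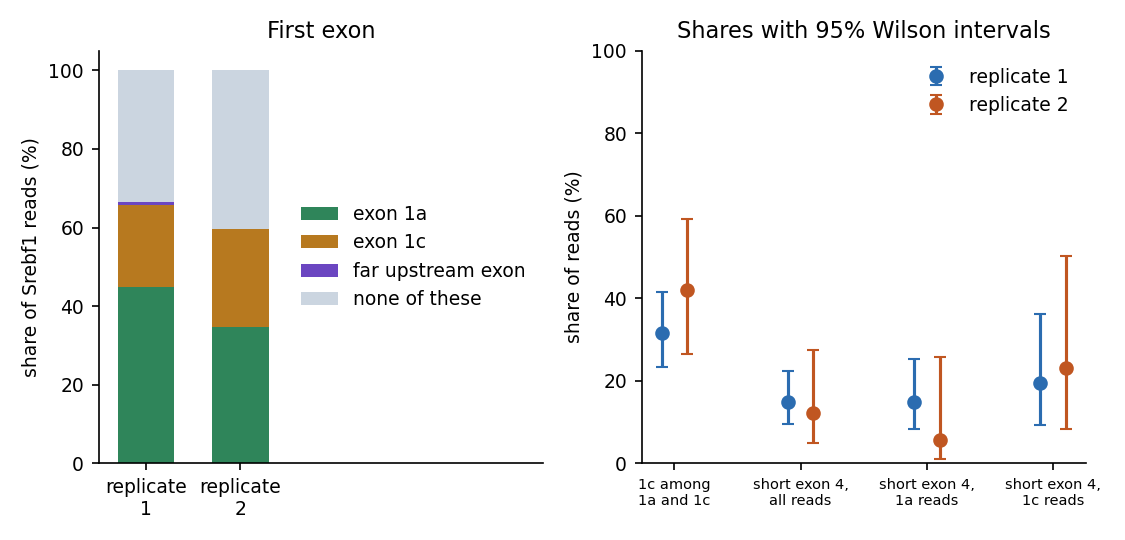
Left, share of all Srebf1 reads (y axis, %) by first exon in each library, as stacked bars. Right, the 1c share among 1a and 1c reads and the share of reads with the short exon 4 (y axis, %), points with 95% Wilson intervals for each library. The 1c share was 31.6% and 41.9%, and the short exon 4 was read with both first exons.

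The remaining named Srebf1 models were rare. A 20-exon model with exon 1a removed an unannotated intron of 126 bp (chr11:60206956-60207081) and had 3 reads in replicate 1. A 20-exon model with exon 1c removed an unannotated intron of 125 bp (chr11:60207031-60207155), overlapping the former, and had 1 read in each library. Another began with an exon at chr11:60209126-60209313, between 1c and the shared second exon, and had 2 reads in replicate 1. Srebf1-203 and Srebf1-206 had 1 read each, in replicate 1.

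Srebf2, the gene of SREBP-2 (chr15:82147181-82205379, plus strand), had few reads that followed its coding transcript from end to end. The chain of Srebf2-201, with 19 exons and 5077 bp, had 1 read in replicate 1 and 3 in replicate 2. Srebf2-205, a retained-intron transcript of 4 exons that ends at chr15:82173894 inside intron 4, had 5 reads in each library. With the 1-exon reads that stop at the same place, reads ending there were 8 of 38 in replicate 1 (21.1%, 11.1% to 36.3%) and 10 of 18 in replicate 2 (55.6%, 33.7% to 75.4%). The intervals overlap slightly, and replicate 2 held the higher share. A further 12 and 4 reads were 1-exon models at the 3′ end of the gene.

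The splice junctions of Srebf2 had correspondingly low counts. The first intron was spliced in 6 and 8 reads, intron 4 in 2 and 3 reads, and the last intron in 18 and 4 reads. In both libraries the count dropped at intron 4, and in replicate 1 it climbed again towards the 3′ end. Every spliced intron of Srebf2 was annotated. Antisense loci overlapping any of the 5 genes had at most 2 reads in a library. Intron 16 holds Mir33 (chr15:82198122-82198190), the gene of a microRNA known to act on cholesterol export. That intron was spliced out in 15 and 4 reads, and no read was assigned to Mir33 itself in either library. Whether these libraries can hold so short an RNA was not tested, so this 0 says nothing about the level of the microRNA.

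Scap, the gene of the sterol-sensing escort protein (chr9:110333288-110384950, plus strand), was read mostly as partial transcripts in replicate 1. Full-length models held 30 of 97 Scap reads in replicate 1 (30.9%, 22.6% to 40.7%) and 22 of 37 in replicate 2 (59.5%, 43.5% to 73.7%). Reads that lack the 5′ part of an annotated transcript made up 63.9% (54.0% to 72.8%) in replicate 1 and 27.0% (15.4% to 43.0%) in replicate 2. Neither pair of intervals overlaps. Scap-201, with 23 exons and 4227 bp, had 20 and 14 reads, or 66.7% (48.8% to 80.8%) and 63.6% (43.0% to 80.3%) of the full-length Scap reads.

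In replicate 1 most of the Scap reads missing their 5′ part were lost in 1 stretch of the gene, between introns 12 and 15. Intron 15 was spliced out in 84 reads of replicate 1, and intron 12 in 39 of these (46.4%, 36.2% to 57.0%). In replicate 2 intron 15 was spliced out in 28 reads, and intron 12 in 24 of these (85.7%, 68.5% to 94.3%). Between these introns replicate 1 thus lost 45 reads, of 62 that lack the 5′ part, and replicate 2 lost 4 of 10. The remaining reads of this kind were spread over other exons. The 45 reads were in 3 models, recorded as starting at chr9:110379832 (22 reads, 10 exons), chr9:110379456 (15 reads, 11 exons) and chr9:110380201 (8 reads, 9 exons), and all 3 ran to the 3′ end of the gene at chr9:110384950. The reads of replicate 2 were in models starting at chr9:110380201 (3 reads) and chr9:110380494 (1 read). All of these starts are the first or last base of an annotated exon. No source used here says whether they are the reads' own ends or were placed at annotated positions in processing. The base at which these reads began is therefore not known. As recorded, the first exon of the 22-read model runs through intron 13 and that of the 8-read model through intron 14. Whether the reads themselves hold these introns is not known either.

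**Figure D3:**
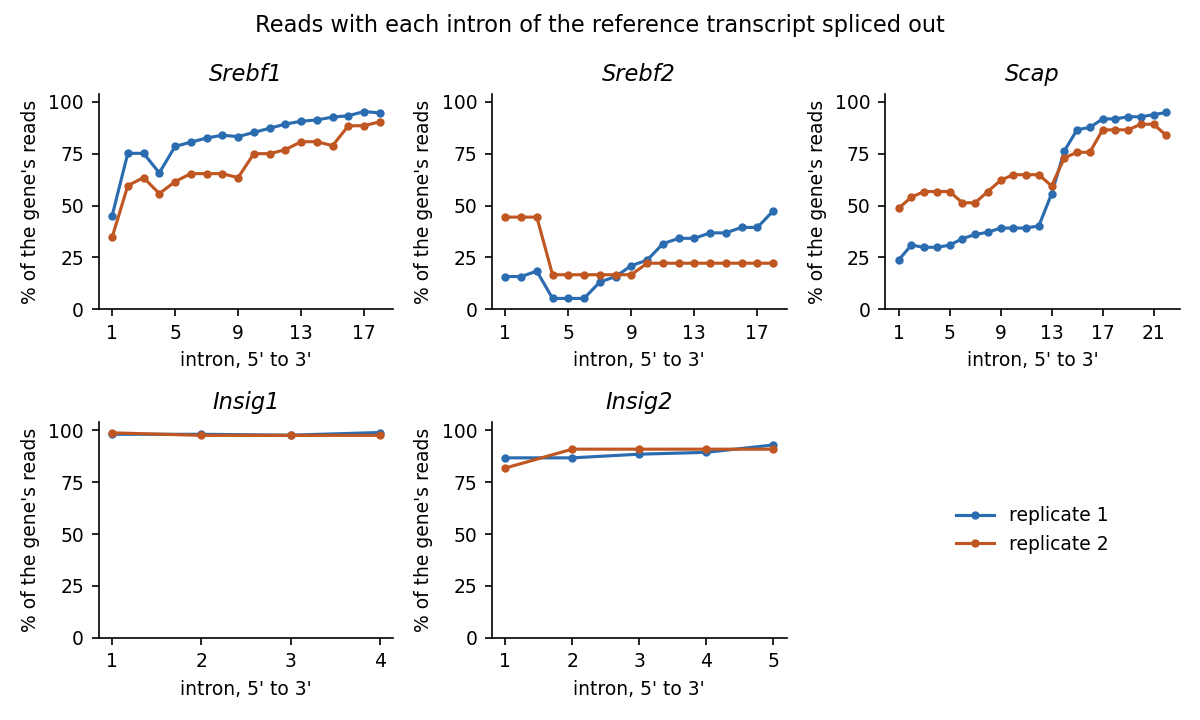
Share of each gene's reads (y axis, %) in which each intron of the reference transcript was spliced out, by intron from 5′ to 3′ (x axis), for both libraries. Scap in replicate 1 steps up between introns 12 and 15, Srebf2 drops at intron 4, and Insig1 stays near the top in every intron.

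2 unannotated Scap models were named. A 16-exon model with a new intron (chr9:110376040-110376562) had 2 reads in each library. A 23-exon model that used an annotated first exon ending at chr9:110333349 with the remaining exons of Scap-201 had 2 and 1 reads.

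Insig1, the INSIG gene that is itself a known SREBP target (chr5:28071363-28078662, plus strand), was read almost entirely as 1 complete transcript. Insig1-201, with 5 exons and 2697 bp, had 451 of 462 full-length reads in replicate 1 (97.6%, 95.8% to 98.7%) and 79 of 80 in replicate 2 (98.8%, 93.3% to 99.8%). Full-length models held 98.5% and 97.6% of all Insig1 reads. The first intron was spliced in 460 and 81 reads and the last in 464 and 80, so coverage did not fall towards the 5′ end. A 4-exon model of 3110 bp that keeps an intron had 4 reads in replicate 1, a 6-exon model with new introns had 2 reads in replicate 1, a 5-exon model of 2651 bp had 1 read in each library, and Insig1-202 had 1 read in replicate 1.

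Insig2, the second INSIG gene (chr1:121304353-121332589, minus strand), also had a single leading transcript. Insig2-201, with 6 exons and 2697 bp, had 92 of 106 full-length reads in replicate 1 (86.8%, 79.0% to 92.0%) and 17 of 20 in replicate 2 (85.0%, 64.0% to 94.8%). Its first exon was used by 105 reads in replicate 1 and 20 in replicate 2. The upstream first exon of Insig2-202, whose donor is at chr1:121332492, had 0 reads in both libraries, and a count of 0 allows up to 3 reads, or 2.62 CPM in replicate 1 and 7.24 CPM in replicate 2. Alternative Insig2 first exons are known from liver, where an insulin-regulated form starts at a separate promoter.

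The second exon of Insig2 (chr1:121319597-121319972) had a shorter form in both libraries. An acceptor 67 bp inside the exon was used in 4 reads of replicate 1 and 2 of replicate 2. The bases it removes lie before the start codon at chr1:121319840. A 6-exon model of 2352 bp with this acceptor had 2 reads in each library. It shares the first splice donor of Insig2-201, and its recorded start, chr1:121327746, lies inside the first exon of Insig2-201, which starts at chr1:121328024. A 4-exon model of 2127 bp had 4 reads and Insig2-214 had 3 reads, all in replicate 1.

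**Figure D4:**
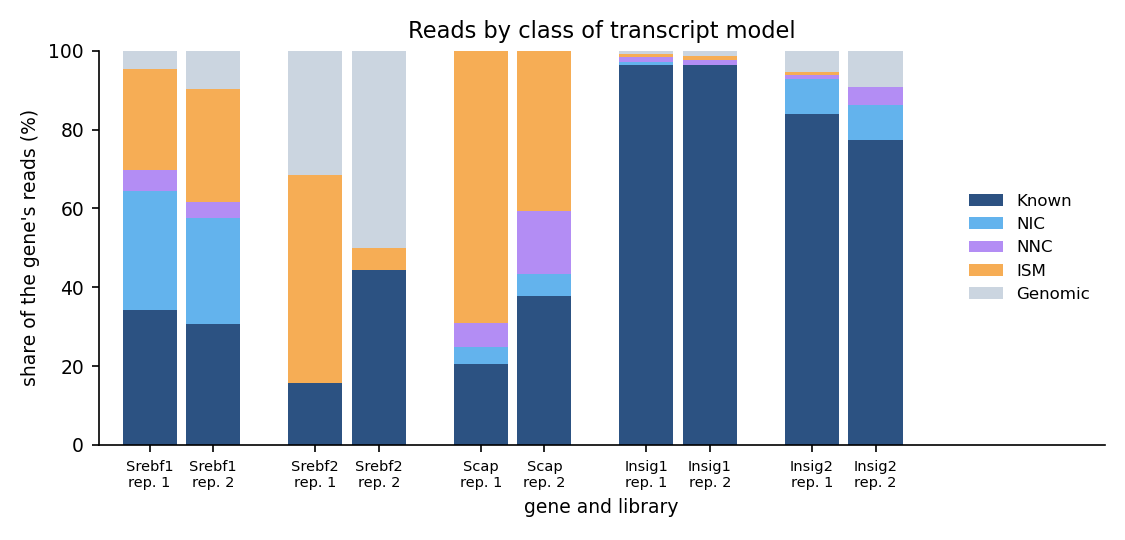
Share of each gene's reads (y axis, %) by class of transcript model in each library (x axis) as stacked bars. Known models hold over 96% of the Insig1 reads, Srebf1 has the largest NIC shares, and Scap is mostly ISM in replicate 1.

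The libraries were then set against each other gene by gene, with a two-sided exact binomial test on TMM-scaled reads and Benjamini-Hochberg adjustment over 9885 genes. Of all genes tested, 14.0% passed the threshold of an adjusted p under 0.05, with 6.13% lower and 7.86% higher in replicate 2. Of the 5 genes 1 passed, a share near that background. Insig1 was lower in replicate 2, with a log2 ratio of -0.98, or 1.97-fold higher in replicate 1 (95% interval 1.56 to 2.52, exact binomial adjusted p = 4.6e-08). Insig2 was 1.77-fold higher in replicate 1 (1.11 to 2.94) and did not pass (exact binomial adjusted p = 0.0795). It passed when libraries were scaled by total reads (exact binomial adjusted p = 0.0453) or by the median of ratios (adjusted p = 0.0365). With replicate 1 thinned to the depth of replicate 2, Insig2 had a log2 ratio of -0.52 and did not pass (exact binomial adjusted p = 0.522).

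Srebf1, Srebf2 and Scap did not pass. The ratio of replicate 2 to replicate 1 was 1.01 for Srebf1 (0.724 to 1.40), 1.37 for Srebf2 (0.738 to 2.47) and 1.11 for Scap (0.736 to 1.63), with exact binomial adjusted p of 1, 0.581 and 0.857. In full-length reads alone Scap had a log2 ratio of 1.12 and an exact binomial adjusted p of 0.0413, on 30 and 22 reads. Srebf2 had a log2 ratio of 1.85 in full-length reads against 0.45 in all reads and did not pass (exact binomial adjusted p = 0.0610), on 6 and 8 reads. Insig1 and Insig2 have transcripts of 2697 bp, and the 2324 genes with transcripts of 2 to 3 kb had a median log2 ratio of -0.15, against -0.01 for all genes tested, so the length class leaned in the same direction by less than either gene. Whether length had a part in these differences was not tested.

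The share of the leading isoform was compared by a two-sided exact Fisher test in the 2799 genes that reached 20 full-length reads in both libraries, of which 1.11% passed. The 4 genes that could be tested, Srebf1, Scap, Insig1 and Insig2, all had an adjusted p of 1 in the exact Fisher test. Srebf2, with 6 and 8 full-length reads, was not tested.

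Genes that act with the 5 members were taken from lists of the pathway, and their counts are to be read beside the 7.86% of all genes tested that were higher in replicate 2, the 6.13% that were lower and the median log2 ratio of -0.01. The test passes smaller ratios in genes with more reads, and the lists were not matched to all genes by read number. A share above that of all genes can therefore come from abundance alone. Of 12 genes of SREBP processing and COPII transport, 11 could be tested, 2 were higher in replicate 2, none was lower and 9 did not pass, with a median log2 ratio of 0.02. The 2 of 11 that passed are near the 14.0% of all genes. The higher genes were Mbtps1, the site-1 protease, at 35.8 and 79.6 CPM, and Sec31a, a COPII coat subunit, at 17.5 and 50.7 CPM. The other protease gene, Mbtps2, was at 7.86 and 4.82 CPM, on only 9 and 2 reads, and did not pass. Its count in replicate 2 lay below the limit of 3 reads. The most abundant genes of the list were the COPII GTPases Sar1a (368 and 270 CPM) and Sar1b (139 and 154 CPM), followed by the coat subunits Sec13 (151 and 125 CPM) and Sec23b (72.5 and 98.9 CPM), and none of these passed.

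Of 9 genes of protein turnover at the endoplasmic reticulum that act on INSIG or beside it, 2 were lower in replicate 2, none was higher and 7 did not pass, with a median log2 ratio of -0.38, beside 6.13% lower over all genes. Vcp, the ATPase that extracts ubiquitinated proteins, was lower, at 685 and 326 CPM. Next in level were the ligase gene Rnf145 at 78.6 and 74.8 CPM and Faf2 at 51.5 and 45.8 CPM, neither of which passed. Of 11 genes of nuclear partners, SREBP turnover and LXR, 9 could be tested, 1 was lower, none was higher and 8 did not pass, with a median log2 ratio of -0.50. The 1 of 9 that passed is near the 14.0% of all genes. The lower gene was Rxrb, a retinoid X receptor and partner of LXR, at 131 and 55.5 CPM. The LXR genes Nr1h2 (153 and 171 CPM) and Nr1h3 (47.2 and 31.4 CPM) and the CCAAT-binding subunit gene Nfyb (43.7 and 28.9 CPM) did not pass.

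Among 23 sterol target genes of SREBP, 22 could be tested, 5 were lower in replicate 2, 3 were higher and 14 did not pass, with a median log2 ratio of -0.29, beside 14.0% of all genes passing in either direction. The lower genes were Fdps at 755 and 357 CPM, Hmgcs1 at 735 and 277 CPM, Msmo1 at 432 and 309 CPM, Cyp51 at 183 and 74.8 CPM, and Sc5d at 135 and 65.1 CPM, all enzymes of cholesterol synthesis. Among the higher genes was Dhcr7, a reductase late in cholesterol synthesis, at 442 and 572 CPM. The target genes thus did not share a direction.

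Among 15 fatty acid target genes, 7 were higher in replicate 2, 2 were lower and 6 did not pass, with a median log2 ratio of 0.19 that became -0.03 without Genomic models. Over all genes 7.86% were higher and 6.13% lower. Without those models 4 genes were higher, with full-length reads alone 3, and with scaling by the median of ratios 4. The higher genes included Fasn, fatty acid synthase, at 245 and 767 CPM, Scd1, a stearoyl-CoA desaturase, at 183 and 608 CPM, Acaca, acetyl-CoA carboxylase, at 26.2 and 121 CPM, and the desaturase gene Fads1 at 168 and 350 CPM. Gpam, at 124 and 186 CPM, Fads2, at 1943 and 2123 CPM, and Thrsp, at 1818 and 1980 CPM, were higher by smaller ratios. Elovl5, a fatty acid elongase, was lower at 698 and 248 CPM, and Me1, malic enzyme, at 962 and 661 CPM. Acly, ATP citrate lyase, at 2034 and 1908 CPM, did not pass.

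**Figure D5:**
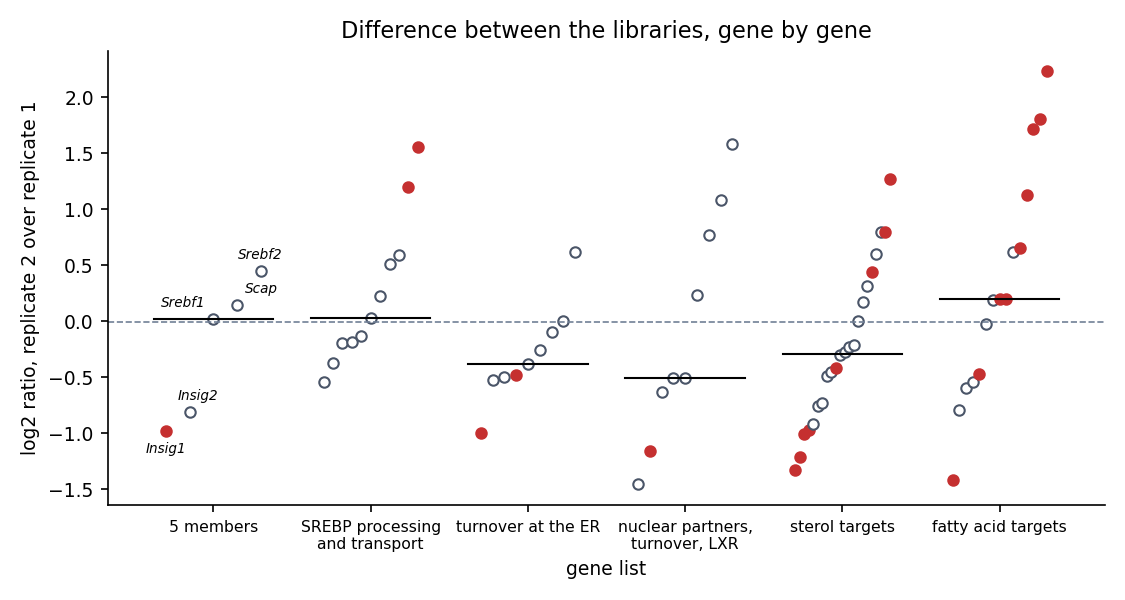
Log2 ratio of replicate 2 over replicate 1 (y axis) for each tested gene of the 5 members and of 5 pathway lists (x axis). Filled points passed the adjusted p threshold, horizontal bars are list medians and the dashed line is the median of all genes tested; the fatty acid targets spread from -1.42 for Elovl5 to 2.23 for Acaca.

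The libraries also differed in depth and in tissue markers. Replicate 1 had 1144572 reads of annotated genes and replicate 2 had 414588, of which 81.9% and 75.7% were in full-length models. All 6 markers of adrenal cortex and all 5 of medulla were read in both libraries, with summed levels of 54462 and 71616 CPM for cortex and 9944 and 6739 CPM for medulla. The higher cortex sum in replicate 2 came from Cyp11a1 alone, and the CPM of every other cortex marker was lower there. Of the cortex markers, Cyp11a1, which makes pregnenolone from cholesterol, was higher in replicate 2, at 20811 and 41366 CPM, and Star, the cholesterol transfer protein of mitochondria, at 10683 and 8799 CPM, and Mc2r, the ACTH receptor, at 122 and 60.3 CPM, were lower. The other 3 did not pass. In full-length reads none was higher and 5 were lower, and with scaling by total reads or by the median of ratios 1 was higher and 4 were lower. Of the medulla markers 3 were lower and none was higher. All 8 adipocyte markers were read in both libraries, with sums of 7322 and 10483 CPM, and 4 of them were higher and none lower in replicate 2, or 2 higher by the median of ratios. Fabp4, a fatty acid binding protein of adipocytes, was at 771 and 2914 CPM, and Adipoq at 295 and 311 CPM. The 5 skeletal muscle markers summed to 875 CPM in replicate 1 and 4.82 CPM in replicate 2, where Atp2a1, Tnnc2 and Tcap were at 0, and the 4 liver markers to 16.6 CPM in replicate 1, with all 4 at 0 in replicate 2. The part of other cell types in the differences of Insig1 and of the target genes was not tested.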

How the data were processed

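Long-read RNA sequencing was done on 2 libraries of mouse adrenal gland. Per the labels' protocols, the submitters used the ENCODE long-read pipeline for mouse. Per the notes deposited with the files, alignments were to mm10 and the annotation was GENCODE M21. The authors deposited whole-number read counts per transcript model, 1 table per library, with model classes and exon positions. For the aligner, its version and any filter, nothing is stated in the sources used here. Ends of models are as deposited and may not be the reads' own ends.

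Read counts were summed per gene over annotated genes, without spike-ins or unannotated loci. First exons were assigned by the first splice donor. Libraries were compared with a two-sided exact binomial test in R 4.3.3 on TMM factors from edgeR 4.0.16 (1.03 and 0.976), for genes with 10 or more reads summed over the libraries, and with Fisher's exact test for isoform shares, both with Benjamini-Hochberg adjustment and tested on simulated data. Log2 ratios have a pseudocount of 1 CPM. Shares have 95% Wilson intervals. Intervals and the limit of 3 reads cover counting error only. Other values were computed with Python 3.11.15 and scipy 1.17.1.

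The 5 genes and the lists were chosen with earlier results of these data known. All 5 genes were named with all values, and also their Known transcripts with a read and their unannotated models with 2 reads in a library or found in both. Of each list the 4 most abundant genes and those past the threshold were named, except some that are not reported here, and Mbtps2 and the markers Fabp4, Adipoq, Cyp11a1, Star and Mc2r were added after their values were seen. Alternatives changed the scaling, the filter, the model classes counted, the depth of replicate 1, the pseudocount and the replicates used.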

Additional observations from a re-analysis of the deposited data

How the results depend on the processing

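Insig1 was lower in replicate 2 and past the threshold under all 6 alternatives of its ratio, between -0.91 and -1.08 on the log2 scale. Insig2 passed with total-read scaling (-0.88) and with median-of-ratios scaling (-0.91), giving 2 lower members, and Scap passed in full-length reads (1.12), giving 1 higher member. Under the other alternatives Insig2 did not pass, and its ratio shrank to -0.52 with replicate 1 thinned. The ratio of Srebf1, near 0, changed sign with total-read scaling (-0.053), median-of-ratios scaling (-0.083) and full-length reads (-0.11), and that of Scap with replicate 1 thinned (-0.12), and none of these passed. The ratio of Srebf2, 0.45, was 1.85 in full-length reads and did not pass. The cause of these changes was not tested.

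With all reads of the library as denominator, Srebf1 was at 118 CPM and Scap at 80.4 CPM. In full-length reads Srebf1 was at 106 CPM, Srebf2 at 15.9 CPM and Scap at 51.1 CPM, and the Srebf1 to Srebf2 ratio was 10.7. Without Genomic models Srebf2 was at 23.9 CPM and Scap at 93.8 CPM, and in models with more than 1 exon Srebf1 was at 142 CPM, Srebf2 at 25.0 CPM and Scap at 96.7 CPM. Without replicate 1 or without replicate 2, the mean is the value of the library left: 125 to 130 CPM for Srebf1, 33.2 to 43.4 for Srebf2, 84.7 to 89.2 for Scap, 198 to 410 for Insig1 and 53.1 to 98.7 for Insig2. The 1c share was 31.6% to 41.9% in this way. Each assignment rule gave the same counts of 1a and 1c reads, and none of these reads was ISM. The unchanged share is therefore no separate check of the assignment. The ratios were 2.89 to 3.92 for Srebf1 to Srebf2 and 3.73 to 4.15 for Insig1 to Insig2.

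Leading isoform shares with all models as denominator were 31.8% for Srebf1, 20.5% for Srebf2, 29.2% for Scap, 96.3% for Insig1 and 79.3% for Insig2, and with Known models alone 98.0% for Srebf1, 100% for Scap, 99.9% for Insig1 and 98.4% for Insig2. Left with 1 library, they were 47.1% to 50% for Srebf1, 62.5% to 83.3% for Srebf2, 63.6% to 66.7% for Scap, 97.6% to 98.8% for Insig1 and 85.0% to 86.8% for Insig2.

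With replicate 1 thinned, 507 of all genes were higher in replicate 2 against 777. By the median of ratios 610 were higher and 794 lower, against 777 and 606. Processing genes had 1 lower gene with total-read scaling, median-of-ratios scaling or thinning, against 0, and nuclear partners 1 higher gene in full-length reads, against 0. Fatty acid targets had 4 higher genes by the median of ratios, 3 in full-length reads and 4 without Genomic models, against 7. No paired analysis was possible because there is 1 group. Depth limits Srebf2 most, with 38 and 18 reads.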
